A study of Mus musculus with 18 samples.

Results

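The genes described here encode the nuclear subunits of the oxidative phosphorylation system and their closest relatives. They were chosen by symbol alone, as every row named Nduf (a, b, c, s or v and a digit), Sdha to Sdhd, Uqcr, Cox4 to Cox8 or Atp5 in the MEF or liver table, with pseudogene names left out. The rule returned 89 genes of 21959 in the MEF table, and 88 of these stand in the liver table among 51826 genes. By symbol, 39 were placed in complex I, 4 in complex II, 8 in complex III, 18 in complex IV and 20 in complex V. Of the 89, 3 lie on the X chromosome (*Ndufa1*, *Ndufb11* and *Cox7b*) and 86 on autosomes. Of the complex V rows, *Dmac2* and *Dmac2l* were caught by the older symbols Atp5sl and Atp5s and are not subunits of the enzyme.

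Oxidative phosphorylation takes place in the inner mitochondrial membrane. Complexes I and II pass electrons from NADH and succinate to ubiquinone, complex III hands them to cytochrome c, complex IV gives them to oxygen, and complex V uses the resulting proton gradient to make ATP. Complexes I, III, IV and V combine nuclear-encoded subunits with a few made from mitochondrial DNA (mtDNA), whereas complex II is wholly nuclear. Several subunits exist as paralogues used in different tissues or oxygen conditions.

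Messenger RNA from mice lacking the repeat B element of *Xist*, the long noncoding RNA that silences 1 X chromosome in female cells, was compared with that of wild-type (WT) mice. The deletion was made with CRISPR/Cas9, and the libraries whose labels carry the letter B are called RepB-/- here and those with W WT. Here 3 RepB-/- and 3 WT libraries of primary mouse embryonic fibroblasts (MEFs, for which the labels name Tail as the tissue) and 3 RepB-/- and 3 WT libraries of Liver were used. The labels give neither the age nor the sex of the donors and do not say that replicates came from separate cultures or animals, so p-values measure the spread between these libraries, which may be technical.

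The MEF libraries held 11540344 to 20587556 counts and the liver libraries 37682201 to 51542709. *Xist* was listed at 290 to 662 CPM (counts scaled to the library size) in 5 of the 6 liver libraries and at 0.0794 CPM in liver RepB-/- replicate 2, the library with 4342 counts on 4 Y-linked genes (at most 4 counts in any other library). That is the pattern of a male animal, which has a single X chromosome and cannot be homozygous for an X-linked deletion. This library is therefore called RepB-/- by its label only. The liver calls, member medians, X-linked members and interaction are given with and without it, and other liver values include it unless stated. *Xist* was not listed under that symbol for the MEF libraries, so its level in MEFs was not analysed here. Counts outside the deleted element do not check the deletion. Summed hepatocyte markers came to 110500 to 192760 CPM in liver and to at most 2.57 CPM in MEFs. Some cell type markers were called between the genotypes in MEFs, beside 39.1% of all genes tested (19.4% higher and 19.7% lower). Summed fibroblast markers came to 14137 to 17186 CPM in RepB-/- and 9683 to 12734 CPM in WT, with 4 of 8 called higher and 1 lower. Summed endothelial markers came to 19.8 to 21.5 CPM in RepB-/- and 28.8 to 36.2 CPM in WT, with 3 of 4 called lower and 1 higher. In the other lists, 2 of 4 leukocyte markers tested rose and 1 fell, and of 2 adipocyte markers 1 rose and 1 fell. In addition, 1 of 3 keratinocyte markers rose, and 2 of 7 striated muscle markers and the 1 erythroid marker tested fell. The 1 fetal hepatoblast marker tested rose, and the 1 brown adipocyte marker tested was not called. The part of cell makeup in the MEF results was not tested. Both liver libraries numbered 1 held 4674 and 5871 CPM of fetal hepatoblast markers, against 4.10 to 19.98 CPM in the other 4. Summed brown adipocyte markers came to 177 CPM in liver RepB-/- replicate 2 and to 4.71 to 10.1 CPM in the others. Summed erythroid markers came to 662 to 2318 CPM in RepB-/- and 138 to 813 CPM in WT liver, with 0 of 7 called. The fibroblast, leukocyte, adipocyte and endothelial sums overlapped between the genotypes. The part of cell makeup in the liver results was not tested. In bulk RNA, fewer cells of a type and less RNA per cell cannot be told apart.

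The promoters of the 3 X-linked members are shown because these genes moved the same way in MEFs. Each is the 250 bases before the RefSeq start, in the direction of the gene, from build GRCm38.p6. *Ndufa1* is read from the minus strand at chrX:37191239-37191488, *Ndufb11* from the minus strand at chrX:20617620-20617869 and *Cox7b* from the plus strand at chrX:106015450-106015699. Capitals mark the matches, on either strand, to 5 short motifs. The letters searched were GCATGC for the core of the NRF1 site, CGGAAG for GABP and AAGATGG for YY1, beside CCAAT for the CCAAT box and ACGTG for the core of the hypoxia response element. No 2 of these motifs share a match in the windows shown.
Ndufa1: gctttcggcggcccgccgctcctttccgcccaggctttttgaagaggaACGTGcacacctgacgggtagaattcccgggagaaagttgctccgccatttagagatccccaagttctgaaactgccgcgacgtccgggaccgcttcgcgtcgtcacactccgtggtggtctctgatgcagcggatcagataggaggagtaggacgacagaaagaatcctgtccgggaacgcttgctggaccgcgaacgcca
Ndufb11: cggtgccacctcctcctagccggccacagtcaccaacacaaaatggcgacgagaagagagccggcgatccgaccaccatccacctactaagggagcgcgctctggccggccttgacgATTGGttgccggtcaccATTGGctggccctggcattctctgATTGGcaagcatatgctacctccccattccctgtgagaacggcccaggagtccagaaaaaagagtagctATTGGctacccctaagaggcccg
Cox7b: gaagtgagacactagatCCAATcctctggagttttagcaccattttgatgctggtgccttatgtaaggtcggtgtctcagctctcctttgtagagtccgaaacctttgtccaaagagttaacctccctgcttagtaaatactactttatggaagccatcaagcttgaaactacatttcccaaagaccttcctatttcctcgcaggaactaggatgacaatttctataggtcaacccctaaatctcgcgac
The *Ndufa1* window held 1 match, to ACGTG, 202 bases before the start. The *Ndufb11* window held 4 matches, all to the CCAAT box on the opposite strand, and the *Cox7b* window held 1 CCAAT box. None of the 3 windows matched the NRF1, GABP or YY1 letters. Over the 72 members with a promoter in the table, the GABP letters were found in 23 (31.9%), against 15.3% of 27025 genes. The NRF1 letters were found in 11 (15.3%) against 7.62% and the CCAAT box in 32 (44.4%) against 37.5%. The hypoxia response letters were found in 17 (23.6%) against 18.5% and the YY1 letters in 2 (2.78%) against 5.18%. These matches describe the letters of the windows only.

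In MEFs, the nuclear oxidative phosphorylation genes kept close to their WT levels while many other genes moved. Of 83 members tested, 6 rose and 5 fell at an adjusted p under 0.05, against 39.1% of the 13306 genes tested (19.4% higher and 19.7% lower). The median size of the log2 difference, sign left out, was 0.10 over the members and 0.26 over all genes tested. The signed medians were 0.03 and 0.00. Among genes with a mean of at least 10 CPM, 9 of 74 members passed the test, against 40.6% of genes. The libraries of the genotypes did not overlap for 19 members, 13 higher and 6 lower, whereas 52.2% of all genes tested did not overlap. The other 6 members held too few counts to be tested, and *Ndufb11b*, *Cox7b2* and the second *Atp5o* row had no count in any MEF library.

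**Figure D1:**
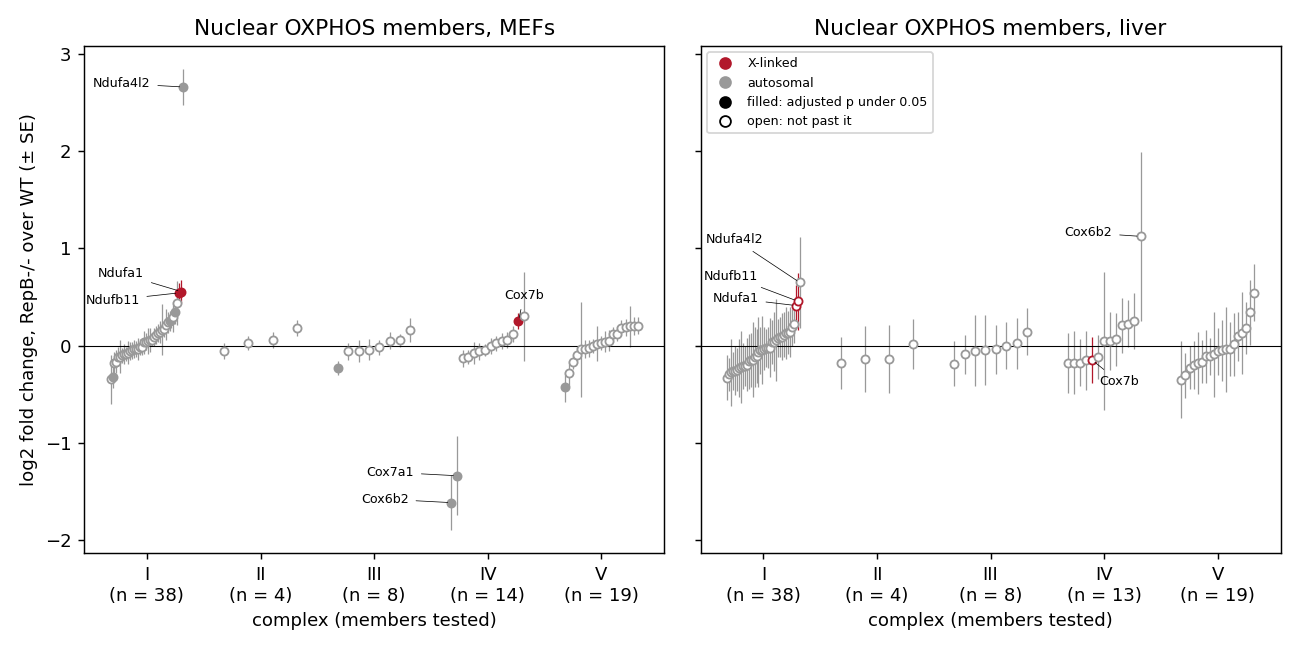
Log2 fold change (RepB-/- over WT) with its standard error for every member tested, ordered within each complex, in MEFs (left) and liver (right), with X-linked members in red and filled points past an adjusted p of 0.05. In MEFs most of the 83 members lie near 0, with *Ndufa4l2* at 2.66 and *Cox6b2* at -1.61 as the extremes, and in liver none of 82 is filled.

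By complex, 5 of 38 members placed in complex I rose, *Ndufa4l2* among them, and 1 fell. No member of complex II changed among 4, and 1 of 8 complex III members fell. In complex IV, 1 of 14 rose and 2 fell, and in complex V 1 of 19 fell. The median log2 differences ran from -0.03 in complexes III and IV to 0.04 in complexes I and II. Those of complexes III, IV and V changed sign with single libraries left out, at 0.05 for III and 0.05 for IV without WT replicate 2, 0.03 for III without RepB-/- replicate 3 and -0.03 for V without WT replicate 1. Complex V moved to 0.13 without WT replicate 2. Summed over members, complex I came to 1619 ± 49.2 CPM in RepB-/- and 1474 ± 115 in WT MEFs (SD, n = 3), and complex V to 2777 ± 68.6 and 2707 ± 236. Much of the difference between the complex I sums lay in *Ndufa4l2*, placed there by symbol only. The X-linked *Ndufa1* and *Ndufb11* added to it, so these sums do not describe complex I as a whole. WT replicate 1, the shallowest library, was the lowest of the 6 for 46 of 83 members (55.4%) and for 29.2% of all genes tested. Its part in these results was not tested beyond leaving it out. Then 11 members were again called, 5 of them higher and 8 shared with the 11, beside 37.3% of all genes. The count was 5 without RepB-/- replicate 1 or 2 (beside 30.1% and 29.2% of all genes) and 7 without RepB-/- replicate 3 (beside 32.3%).

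The 3 X-linked members all rose in MEFs, beside 43.3% of the 423 X-linked genes tested that were called higher. *Ndufa1* (chrX:36451241-36454816, GRCm39, minus strand) encodes a small membrane subunit of complex I. It was measured at 17.4, 18.4 and 17.6 CPM in the RepB-/- libraries and 10.6, 12.7 and 12.9 CPM in the WT libraries. The lowest RepB-/- value exceeded the highest WT value. The log2 fold change was 0.56 ± 0.12 (SE), or 1.47-fold, with an adjusted p of 0.00212.

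*Ndufb11* (chrX:20481565-20483858, GRCm39, minus strand), another membrane subunit of complex I, stood at 54.7, 58.1 and 57.5 CPM in RepB-/- and 37.3, 45.2 and 34.3 CPM in WT MEFs. The groups did not overlap, and the fold was 1.46 (log2 0.54 ± 0.10, adjusted p = 0.000789). *Ndufb11* overlaps *Rbm10* on the other strand, and whether counting used the strand is not given in the sources used here. *Cox7b* (chrX:105059306-105066056, GRCm39, plus strand), a small subunit of complex IV, was measured at 65.7, 63.1 and 65.2 CPM in RepB-/- and 47.9, 57.4 and 57.1 CPM in WT. These libraries did not overlap either, but the change was smaller, at 1.19-fold (log2 0.25 ± 0.08, adjusted p = 0.0280). *Ndufa1* and *Ndufb11* passed the test whichever library was left out, whereas *Cox7b* lost it without any 1 of the RepB-/- libraries or WT replicate 1 (adjusted p up to 0.0790).

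**Figure D2:**
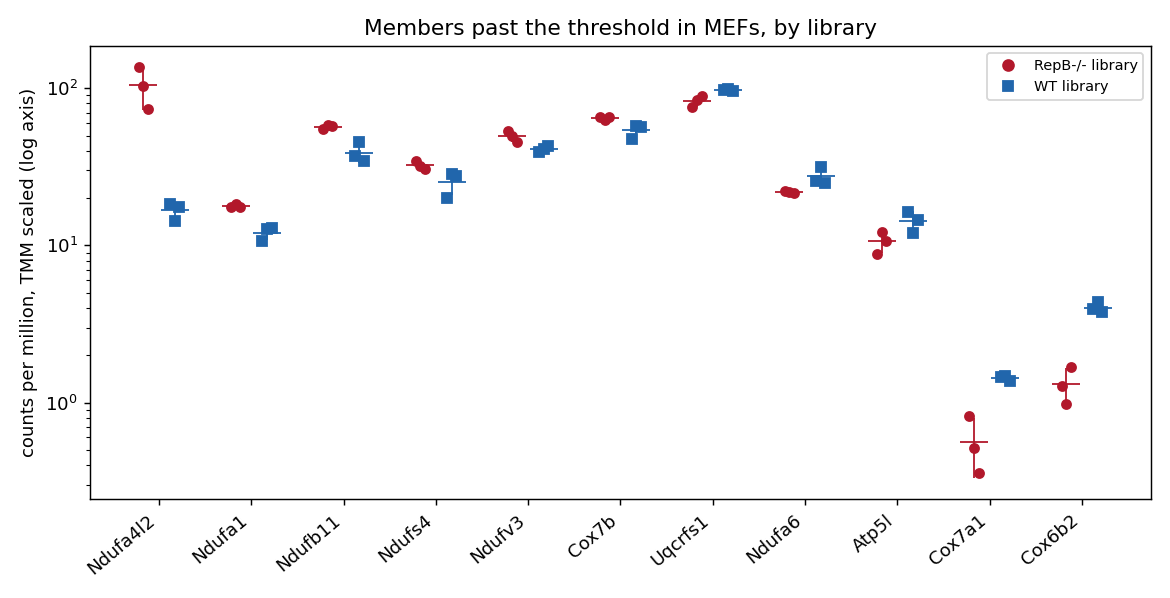
CPM (log axis) in each MEF library for the 11 members past an adjusted p of 0.05, RepB-/- as circles and WT as squares, with bars for the mean and SD. The groups separate for every member shown except *Atp5l*, and *Ndufa4l2* shows the widest gap, at 73.7 to 137 against 14.2 to 18.3 CPM.

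Of the 83 members tested with edgeR, *Ndufa4l2* changed most. This paralogue of *Ndufa4* is known as a gene induced by low oxygen through HIF1, and lies at chr10:127350836-127353023 (GRCm39, plus strand). It stood at 137, 104 and 73.7 CPM in RepB-/- MEFs and at 18.3, 14.2 and 17.6 CPM in WT MEFs. The lowest RepB-/- library was well above the highest WT library, and the RepB-/- libraries also differed among themselves. The rise was 6.31-fold (log2 2.66 ± 0.18, adjusted p = 4.3e-07), and it stayed between 2.42 and 2.86 on the log2 scale with any 1 library left out. *Ndufa4l2* overlaps *Shmt2* on the other strand.

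Its paralogue *Ndufa4*, a subunit found with complex IV, did not pass the test, at 72.1, 74.1 and 79.8 CPM in RepB-/- and 68.7, 79.0 and 80.4 CPM in WT (log2 -0.02 ± 0.08, adjusted p = 0.898). Both genes were placed in complex I by symbol only. On the length-scaled FPKM scale, *Ndufa4l2* made up 62.8 ± 8.47% of the summed *Ndufa4* and *Ndufa4l2* level in RepB-/- and 21.7 ± 3.31% in WT MEFs (SD, n = 3). It was thus the more abundant of the pair in each RepB-/- library and the less abundant in each WT library.

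The remaining calls in complex I were small. *Ndufs4*, an accessory subunit of the NADH-oxidising arm, was measured at 34.3, 32.1 and 30.8 CPM against 20.1, 28.3 and 27.7 CPM in WT (1.27-fold, adjusted p = 0.0329). *Ndufv3*, of the same arm, stood at 53.4, 49.9 and 45.2 CPM against 39.5, 40.9 and 42.7 CPM (1.20-fold, adjusted p = 0.0233). *Ndufa6*, an accessory subunit, was the only complex I member to fall, at 22.2, 22.01 and 21.7 CPM against 25.7, 31.6 and 25.1 CPM (log2 -0.32 ± 0.11, adjusted p = 0.0258). The groups did not overlap for any of the 3, yet each lost its call when some single libraries were left out, with adjusted p up to 0.108 for *Ndufs4* (without RepB-/- 1 or 2 or WT 1), 0.107 for *Ndufv3* (without RepB-/- 1 or 2) and 0.124 for *Ndufa6* (without any RepB-/- library or WT 2).

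In complex II, *Sdha*, which carries the flavin that oxidises succinate, came nearest to the threshold, at 208, 206 and 227 CPM against 170, 195 and 201 CPM (log2 0.18 ± 0.08, adjusted p = 0.0811). It was named after its values were seen. In complex III, *Uqcrfs1*, the Rieske iron-sulfur protein, stood at 75.9, 84.5 and 88.8 CPM in RepB-/- and 97.0, 98.9 and 96.3 CPM in WT MEFs. All 3 RepB-/- libraries lay below the WT libraries (log2 -0.23 ± 0.08, adjusted p = 0.0268), and the call was lost without RepB-/- 1 or 2 or WT 2 or 3, with adjusted p up to 0.148. In complex V, *Atp5l*, the g subunit of the membrane part, was called lower although its libraries overlapped, at 8.87, 12.2 and 10.6 CPM against 16.4, 11.997 and 14.5 CPM (log2 -0.43 ± 0.15, adjusted p = 0.0392). Without RepB-/- 1 or 3 or WT 1 or 3 it was not called, with adjusted p up to 0.161.

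The complex IV members that fell in MEFs were both minor isoforms. *Cox6b2*, known as the testis form of the intermembrane-space subunit Cox6b, was measured at 1.27, 0.982 and 1.67 CPM in RepB-/- and 3.93, 4.39 and 3.74 CPM in WT MEFs. The groups were far apart at this low level (log2 -1.61 ± 0.28, 3.06-fold lower, adjusted p = 0.000635), and the call held with any 1 library left out. Its common paralogue *Cox6b1* stood near 92.8 CPM in RepB-/- and 91.1 CPM in WT (adjusted p = 0.812). *Cox6b2* therefore supplied 0.893 ± 0.230% of the pair's FPKM in RepB-/- and 2.75 ± 0.128% in WT.

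*Cox7a1*, the heart and skeletal muscle form of Cox7a, stood at 0.815, 0.517 and 0.355 CPM in RepB-/- and 1.44, 1.48 and 1.37 CPM in WT MEFs. The groups did not overlap (log2 -1.34 ± 0.41, adjusted p = 0.0186), but the call was lost without RepB-/- 2 or 3 (adjusted p up to 0.0851). The ubiquitous *Cox7a2* did not pass the test, with 53.4 and 51.5 CPM in the means (adjusted p = 0.668), and *Cox7a1* made up 1.85 ± 0.82% of the pair's FPKM in RepB-/- and 4.68 ± 0.332% in WT. Of 7 striated muscle markers tested, 2 fell (*Acta1* and *Myh3*), beside 39.1% of all genes that were called. The sum of the list, in which *Acta1* was the largest, was 73.5 to 84.8 CPM in RepB-/- and 152 to 215 CPM in WT MEFs, while *Ckm* was at or under 0.321 CPM in each library. The part of such cells in the fall of *Cox7a1* was not tested.

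**Figure D3:**
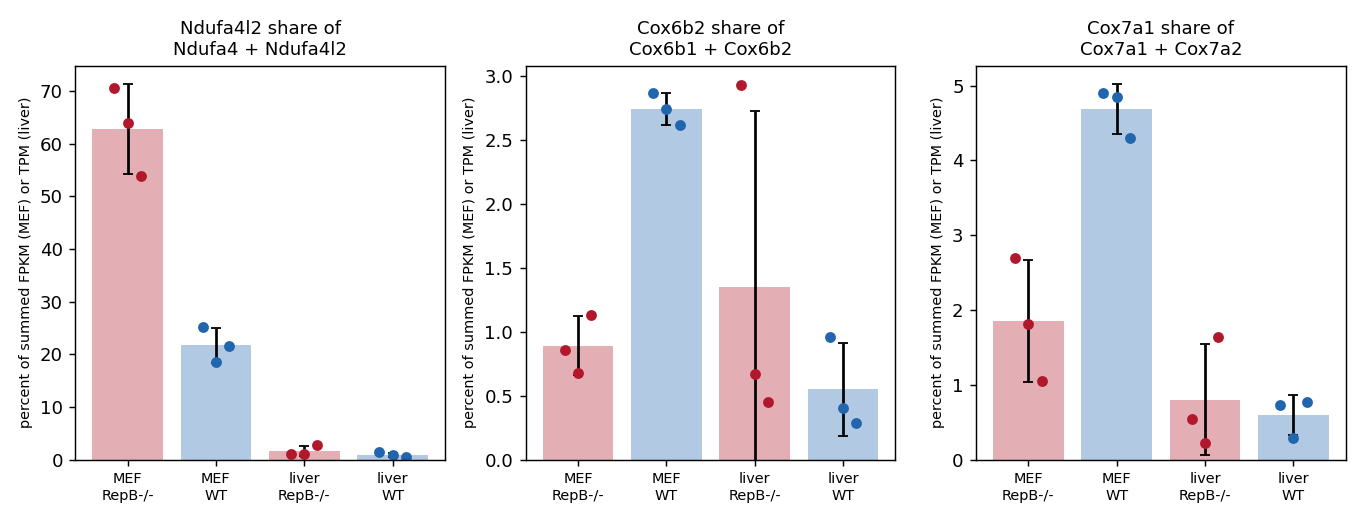
Share of each minor isoform in the summed level of its pair, in percent of FPKM (MEFs) or TPM (liver), as points for libraries and bars for mean and SD. In MEFs *Ndufa4l2* takes 53.8 to 70.6% in RepB-/- and 18.5 to 25.1% in WT libraries, while *Cox6b2* and *Cox7a1* take smaller shares in RepB-/- than in WT.

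The shares of the Cox4i and Cox6a isoforms overlapped between the genotypes. *Cox4i2*, the oxygen-regulated form of Cox4, made up 2.995 ± 1.57% of the Cox4i FPKM in RepB-/- and 2.35 ± 1.12% in WT MEFs. *Cox6a2*, the muscle form of Cox6a, gave 0.165 ± 0.0710% and 0.108 ± 0.0914%, and *Cox8a* gave no less than 99.7% of the Cox8 level in any MEF library. Of the genes for the c ring of ATP synthase, *Atp5g3* held 47.7 ± 1.10% and 48.3 ± 1.79% and *Atp5g2* 41.5 ± 1.26% and 39.7 ± 1.39% of their summed FPKM in RepB-/- and WT, with overlap. *Atp5g1* held 10.6, 10.9 and 11.02% in RepB-/- and 12.1, 12.6 and 11.2% in WT, without overlap (10.8 ± 0.207% and 11.96 ± 0.670%, SD, n = 3). As a gene, *Atp5g1* did not pass the test (log2 -0.09 ± 0.09, adjusted p = 0.422).

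Per length, and averaged over both genotypes, the most abundant member in MEFs was *Sdhd* in complex II, *Uqcrfs1* in complex III, *Cox6a1* in complex IV and *Atp5b* in complex V. The lead of *Uqcrfs1* came from WT, where it stood at 74.2 ± 2.33 FPKM and *Uqcrh* at 62.4 ± 1.84 FPKM, whereas in RepB-/- they stood at 58.6 ± 4.72 and 59.9 ± 1.13 FPKM, a difference within the spread. *Atp5b*, the catalytic beta subunit, stood at 225 ± 9.44 FPKM in RepB-/- and 247 ± 15.2 FPKM in WT (SD, n = 3). *Cox6a1* stood at 320 ± 14.6 and 318 ± 29.6 FPKM. FPKM was not corrected for composition, so small shifts on it differ from those of the test. In liver the leaders were *Ndufa6*, *Sdhd*, *Uqcr10*, *Cox6a1* and *Atp5b*, with *Atp5b* at 953 ± 382 TPM in RepB-/- and 1121 ± 149 TPM in WT.

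Some members were counted sparsely in the MEF table. The liver values are set beside them as levels from another annotation, with no test between the tables. *Atp5o*, a subunit of the ATP synthase stalk, had 0.304 to 0.866 CPM in MEFs and 77.5 to 142 CPM in liver. *Ndufb9* had 2.005 to 3.03 CPM in MEFs and 81.7 to 147 CPM in liver, and *Ndufa11* 2.85 to 5.35 and 44.4 to 65.9 CPM. *Atp5o* shares its strand and position with the second *Atp5o* row, and *Ndufb9* with *Gm49356*, so reads of these genes can be split or dropped in counting. Genotype differences of such rows rest on few counts, and the part of the annotation in these low values was not tested. Of the members called lower in MEFs, *Atp5l* had 8.87 to 16.4 CPM there and 68.2 to 145 CPM in liver. *Ndufa6*, also called lower, had 21.7 to 31.6 and 105 to 151 CPM. The part of the annotation in their MEF values was not tested either.

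The other genes of the pathway are given by list, to be read beside the 39.1% of all genes tested that were called in MEFs (19.4% higher and 19.7% lower). Of 10 mtDNA-encoded subunits tested, *mt-Cytb* of complex III rose (log2 0.38 ± 0.09, adjusted p = 0.0051) and *mt-Co1*, the catalytic core of complex IV, fell (log2 -0.42 ± 0.09, adjusted p = 0.00244). *mt-Co1* stood at 6521, 7383 and 7572 CPM in RepB-/- and 9926, 9519 and 9240 CPM in WT, without overlap. The 13 mtDNA-encoded genes gave 1.94, 2.33 and 2.26 counts per nuclear-encoded count in RepB-/- and 2.77, 2.44 and 2.55 in WT. This ratio was lower in every RepB-/- library, and it leaned on *mt-Co1*, since *mt-Co2*, *mt-Co3* and *mt-Atp6* stood at or under 16.5 CPM in each MEF library.

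Among assembly factors, 3 of 6 for complex III rose, namely *Lyrm7* (log2 0.57), *Bcs1l* (0.34) and *Uqcc2* (0.28), and none fell. *Bcs1l* and *Lyrm7* act in the insertion of the Rieske protein. The call of its own gene, *Uqcrfs1*, as lower was lost with some single libraries left out, and a link between these changes was not tested. For complex I, 1 of 16 rose (*Tmem126b*, log2 0.33), and for complex II none of 3 passed the test. For complex IV, 1 of 20 rose (*Higd1a*, 0.46) and 1 fell (*Coa7*, -0.39), and for complex V 2 of 6 rose (*Oxa1l* 0.34, *Atpaf1* 0.30) and 2 fell (*Atpaf2* -0.35 and *Tmem70*). Neither of the 2 cytochrome c and c1 genes tested passed the test. These lists are short, and the counts describe them only.

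Of 18 regulators of mitochondrial biogenesis and mtDNA upkeep, 7 fell and 1 rose, with a median log2 difference of -0.18. In either direction, these 8 calls stand near the 39.1% of all genes tested, as do the 6 of 14 and 4 of 13 in the lists that follow. On that measure they single out no list. By direction, 19.4% of all genes tested were called higher and 19.7% lower, and a lean of a list to 1 side was not tested. The largest falls were those of *Polg2*, the accessory subunit of the mtDNA polymerase (log2 -1.995 ± 0.26), *Ppargc1b*, a coactivator (-1.73 ± 0.42), and *Twnk*, the mtDNA helicase (-0.80 ± 0.17). *Polg2* was measured at 2.14, 3.36 and 3.24 CPM in RepB-/- and 16.9, 9.28 and 9.09 CPM in WT. Of 14 genes of the tricarboxylic acid cycle, 6 rose and none fell, led by the X-linked *Idh3g* (log2 0.52 ± 0.08), *Idh2* (0.49 ± 0.13) and *Dld* (0.40 ± 0.09). Of 13 genes of mitochondrial fatty acid oxidation, 3 rose, with *Acaa2* (0.43) and *Etfdh* (0.41) the furthest, and *Acadvl*, the very long chain acyl-CoA dehydrogenase, fell by 0.93 on the log2 scale.

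In liver, no member passed the test. Of 82 members tested with edgeR, 0 were called, against 0.0373% of 16080 genes (0.0498% with the replicate block). At an unadjusted p under 0.05 there were 0 members, against 502 of the 16080 genes. DESeq2 called 0 of 84 members, against 0.28% of all genes. The variation between liver libraries was large, with a biological coefficient of variation of 51.2% (33.7% with the replicate block) against 9.06% in MEFs, and the median SE of a member's log2 fold change was 0.27 (0.25 with the block) against 0.09. Differences of the size seen in most MEF calls were thus not detectable in liver. The member median was -0.05, and the medians by complex ran from -0.14 in complex II to 0.05 in complex IV. Their signs and order turned with single libraries left out. Without RepB-/- replicate 3 they ran from 0.06 in complex II to 0.15 in complex III. Without RepB-/- replicate 2 they ran from -0.26 in complex II to -0.16 in complex III, complex IV stood at -0.21, the member median was -0.21 and 0 members were called.

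One liver library stood apart in this pathway. Liver RepB-/- replicate 3 was the lowest of the 6 for 58 of 82 members (70.7%), and for 20.1% of all genes tested. Its median member lay at -0.48 on the log2 scale relative to the WT mean, against 0.05 and 0.19 in RepB-/- replicates 1 and 2 and -0.10 to 0.12 in WT. The drop ran through each complex, from -0.45 in complex I to -0.50 in complex IV. Without this library the member median turned from -0.05 to 0.13.

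In the same library the mtDNA-encoded genes took 19.3% of all counts, against 5.34 to 7.002% in the other 5 liver libraries. It held 32.5 mtDNA-encoded counts per nuclear-encoded count, against 4.90 to 7.53 in the others. Leaving the mtDNA-encoded counts out of the total, the members made up 0.733% of its counts and 1.00 to 1.15% of those of the others. It was the lowest of the 6 on this scale too. The 13 mtDNA-encoded genes had a median log2 difference of 1.22 between the genotypes, and 0 passed the test with edgeR, 0 also at an unadjusted p under 0.05. Hepatocyte markers were highest in this library too, and the part of cell makeup or RNA quality was not tested.

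**Figure D4:**
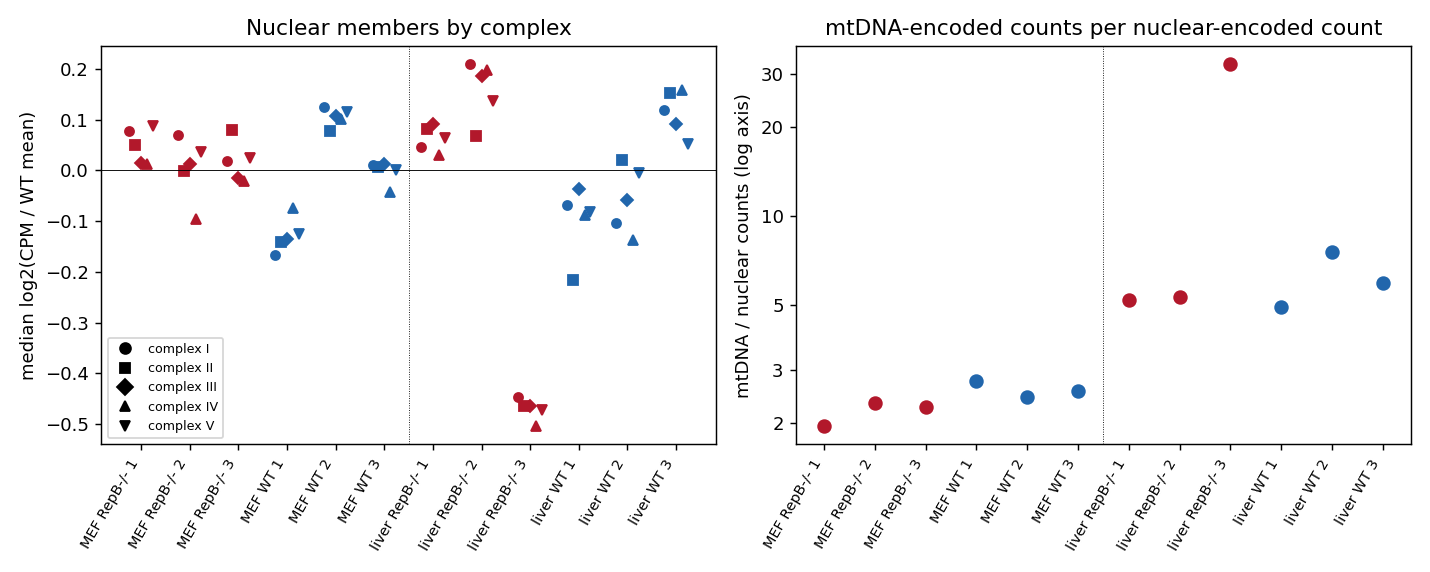
Left, median over the members of each complex of log2 CPM relative to the WT mean of the tissue, by library. Right, counts on the 13 mtDNA-encoded genes per count on the nuclear-encoded members (log axis). Liver RepB-/- replicate 3 lies lowest in each complex on the left and highest on the right, at 32.5.

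Of the X-linked members, *Ndufa1* stood at 61.8, 52.1 and 52.1 CPM in RepB-/- and 39.9, 33.7 and 51.2 CPM in WT liver. The groups did not overlap, which 8.05% of all genes tested in liver also showed, and the fold of 1.33 had an adjusted p of 1.00 (log2 0.41 ± 0.21). *Ndufb11* was measured at 181, 117 and 94.4 CPM against 89.9, 85.6 and 110 CPM, with overlap (log2 0.46 ± 0.29). *Cox7b* stood at 136, 131 and 93.9 CPM against 125, 126 and 149 CPM, also with overlap (log2 -0.15 ± 0.23). The second RepB-/- value of each gene is that of the library with Y-linked counts and *Xist* at 0.0794 CPM. Without it the log2 fold changes were 0.45 (*Ndufa1*), 0.53 (*Ndufb11*) and -0.22 (*Cox7b*), and none was called.

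*Ndufv2*, a subunit of the NADH-oxidising arm of complex I, was the other member without overlap, and the only one that lay lower. It stood at 70.4, 70.0 and 71.4 CPM in RepB-/- and 86.5, 83.6 and 90.0 CPM in WT liver. It was named after its values were seen, and its log2 fold change of -0.30 ± 0.17 did not pass the test (adjusted p = 1.00). The smallest p in the other complexes belonged to *Sdhb* (log2 -0.18 ± 0.26), *Uqcrc2* (-0.18 ± 0.23), *Cox6b2* (1.12 ± 0.87) and *Atp5d* (0.54 ± 0.29), none below an unadjusted p of 0.105. *Atp5d*, the delta subunit of the stalk, was measured at 281, 202 and 151 CPM against 157, 129 and 149 CPM, with overlap.

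*Ndufa4l2* was sparse in liver, at 1.80, 2.24 and 3.996 CPM in RepB-/- and 2.30, 1.55 and 1.27 CPM in WT, with a log2 fold change of 0.65 ± 0.47 (0.76 without RepB-/- replicate 2). It made up 1.67 ± 0.99% of the pair's TPM in RepB-/- and 0.976 ± 0.405% in WT (SD, n = 3). The other members called in MEFs had liver log2 fold changes of -0.14 ± 0.39 (*Ndufs4*), 0.08 ± 0.20 (*Ndufv3*), 0.11 ± 0.23 (*Ndufa6*), -0.04 ± 0.26 (*Uqcrfs1*), 0.01 ± 0.33 (*Atp5l*) and 0.05 ± 0.71 (*Cox7a1*). Each SE exceeded the estimate beside it. Without RepB-/- replicate 2, the estimates of *Ndufs4* and *Uqcrfs1* were -0.40 and -0.17, and those of *Ndufa6* and *Ndufv3* turned to -0.05 and -0.05. Over the 9 other pathway lists and the mtDNA-encoded genes, no gene was called in liver with edgeR, and 1 had an unadjusted p under 0.05, in the list of complex IV assembly.

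A test of the tissue by genotype interaction, over genes in both tables, asked whether a member's difference was unlike in MEFs and liver. Of 84 members, edgeR called 0, against 0.388% of 15208 genes. At an unadjusted p under 0.05 there were 3 members, a smaller share than among the 15208 genes. *Ndufa4l2* came first, with a difference of -1.999 ± 0.48 in log2 fold change (liver minus MEFs, adjusted p = 0.110), and DESeq2 called it (adjusted p = 0.00560). DESeq2 called 1 of 86 members, against 3.53% of all genes. For the X-linked members the interaction ran from -0.40 to -0.09, and none passed the test. Without liver RepB-/- replicate 2, an alternative chosen after the values were seen, edgeR called 0 of 83, with *Ndufa4l2* at -1.95 ± 0.51 (adjusted p = 0.154). DESeq2 then called *Ndufa4l2* alone (adjusted p = 0.0221), against 4.02% of all genes. The tissues were counted in tables of different annotation, so between them only this difference of differences was tested.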

How the data were processed

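RNA-seq counts of 12 libraries were analysed in 4 groups of 3. Both deposited tables hold whole-number counts per gene, which the authors did not normalize. The MEF table also holds FPKM, which the authors derived from the counts and gene lengths, and the liver table holds TPM, which the authors computed per library. FPKM and TPM were used only for levels between genes and isoform shares, and 6 per-library columns (liver FPKM) were not used. Columns with the authors' fold changes and p-values were not used. The study's methods name Cutadapt and Hisat2 for the MEF reads, whereas the submitters' processing notes also name Trim Galore 0.4.1, STAR 2.7.0 and HTSeq 0.12.4, a read counter. The methods describe the libraries as stranded. Which tool counted each table, and with which strand setting, is not given in the sources used here. The MEF table carries GRCm39 and the liver table GRCm38 coordinates, and promoter sequences are RefSeq's for GRCm38.p6, with 72 of the members matched by symbol.

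Genotypes came from the library labels. Counts were filtered with filterByExpr, scaled by TMM and tested within each tissue, and for the interaction over both, with the quasi-likelihood test of edgeR 4.0.16 in R 4.3.3, with Benjamini-Hochberg adjustment over all genes tested and a threshold of 0.05. CPM are counts scaled to the TMM-adjusted library size. The SE of an edgeR log2 fold change was derived from the test, as its absolute value divided by the square root of the F statistic. DESeq2 1.42.0 was an alternative, beside its size factors, no filter, protein-coding genes, autosomal TMM, a replicate block, a replicate 1 term, a fold minimum of 1.5 and leaving out each library. The fits were tested on simulated data. Depth is the total count per library, and a floor of 3 counts equals 0.0582 to 0.260 CPM, for counting error only.

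Same-numbered libraries of the genotypes deviated together in liver (correlations of 0.748, 0.415 and 0.392 over genes) and not in MEFs (0.0157, -0.0621 and -0.0194), so the numbers were taken to pair the liver libraries only, from the data and not from the labels. In liver, however, RepB-/- 2 correlated as much with WT 3 (0.504) and RepB-/- 3 with WT 2 (0.494), so the data set only replicate 1 apart from the others. The main liver fit had genotype only, without pairing, and its values are those printed unless the replicate block or another alternative is named. Members, lists and tests were chosen with earlier results of these data known. Named with values were the X-linked members, in each complex up to 2 rising and 2 falling called members with at least 10 CPM, the smallest p per complex in liver, the isoform families, the most abundant member per complex, and up to 3 called genes of each pathway list; others are said to be named after their values were seen. The brain libraries were not analysed here. 1 result under this rule is not reported here.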

Additional observations from a re-analysis of the deposited data

How the results depend on the processing

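In MEFs, the 11 members called (beside 39.1% of all genes) became 17 with no filter on low counts (13 higher, 10 shared with the 11, beside 32% of all genes). *Uqcrfs1* lost its call there (adjusted p = 0.0784 with edgeR). The 11 became 3 with a fold of at least 1.5, for which the share of all genes was not computed. With 1 library left out, the members called ran from 5 to 14 (beside 29.2% to 38.2% of all genes). They were 5 without RepB-/- replicate 1 or 2 and 7 without RepB-/- replicate 3. The share of all genes called fell as well, to 30.1%, 29.2% and 32.3% without RepB-/- replicates 1, 2 and 3. The cause was not tested. DESeq2 called 9 (beside 26.3% of all genes), size factors, autosomal TMM and protein-coding genes 11 each (beside 39.1% to 39.2%). With the replicate block, which the MEF numbers do not pair, 10 were called (beside 37.6% of all genes), *Atp5l* being lost (adjusted p = 0.0522). The block changed no other call reported here. DESeq2 also lost *Atp5l* and *Ndufa6* (adjusted p = 0.0665 and 0.0504). The MEF median of all members ran from -0.02 without WT replicate 1 to 0.08 without WT replicate 2.

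In liver, 0 members were called in every alternative run. The liver median of all members was -0.08 with the replicate block and ran from -0.21 without RepB-/- replicate 2 to 0.13 without RepB-/- replicate 3. For the interaction, edgeR called 0 members with the replicate block and with each other scaling and filter. DESeq2 called 1, with and without liver RepB-/- replicate 2 (3.53% and 4.02% of all genes). Liver estimates that changed sign, none of them called, were *Ndufa6* (-0.0856), *Ndufv3* (-0.0424), *Cox7a1* (-0.00952) and *Atp5l* (-0.412) with the replicate block and without RepB-/- replicate 2, and *Atp5l* with the replicate block alone (-0.033). With 1 library left out, liver estimates ran from -0.40 to 0.20 (*Ndufs4*), -0.0469 to 0.24 (*Ndufa6*), -0.0463 to 0.22 (*Ndufv3*), -0.24 to 0.00932 (*Cox7b*), -0.17 to 0.15 (*Uqcrfs1*), -0.25 to 0.27 (*Atp5l*), -0.14 to 1.67 (*Cox6b2*) and -0.52 to 0.45 (*Cox7a1*).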
